A study of Saccharomyces cerevisiae with 12 samples.

Results

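The nuclear genes of the respiratory chain and of ATP synthase in budding yeast (Saccharomyces cerevisiae) were followed complex by complex through a culture course. The 32 genes were found by their systematic names among the 6100 open reading frames of the deposited table, and all 32 had a value on all 12 arrays. They comprised 7 subunits of complex IV (cytochrome c oxidase), 9 subunits of complex III (the cytochrome bc1 complex), 3 NADH dehydrogenases, 5 subunits of the catalytic F1 head of ATP synthase, 7 subunits of its stator and membrane part, and INH1, the inhibitor of ATP synthase. The genes were chosen by what they encode, with no threshold on a measured value.

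Total RNA was measured on 12 arrays of 2 colours, each of which set 1 culture sample against an RNA labelled only as reference. The wild type was strain DBY8778, with samples labelled 0, 3, 5, 7 and 9 hours and 1 day, and the other strain lacked USV1 (YPL230W, a zinc finger protein), with samples labelled 0, 2, 5, 7 and 9 hours and 1 day. All belong to a stationary phase course, and neither a medium, another allele nor the start of the hours is named. Each strain and time had 1 array, with no sign in the labels of a second culture of either strain, so p-values measure how steady a difference was over arrays and not the spread between cultures.

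The values are log2 ratios of sample over reference with each array set to a median of 0. The direction of the ratio is likely rather than known, because it was taken from USV1, which was lower in the deletion at 5 of 5 shared times by 0.43 to 4.92 (log2 differences of -0.43 to -4.92). The deleted gene still read 1.14 on the 7-hour array of the deletion, above the wild-type values of 0, 3 and 5 hours (-0.57, 0.50 and 0.28), and at most -0.29 on its other arrays. Between 5931 and 6085 genes had a value on an array. The standard deviation (SD) over all genes was 0.49 to 0.62 on the early arrays (0 hours, and 2 or 3 hours) and 1.17 to 1.46 on the late arrays (7 hours, 9 hours and 1 day). The 5-hour arrays had an SD of 0.68 (wild type) and 1.63 (deletion). A ratio to a reference gives no abundance that could be compared between genes, so changes and not levels were set side by side. In such bulk ratios, less of a transcript per cell cannot be told apart from fewer cells that hold it.

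Yeast has no proton-pumping complex I. Small NADH dehydrogenases of the inner membrane instead pass electrons to coenzyme Q, Ndi1 from the matrix side and Nde1 and Nde2 from NADH of the cytosol, and complex III, cytochrome c and complex IV carry them on to oxygen. ATP synthase uses the resulting proton gradient, and most of the genes are known to be held low while glucose is fermented and to be induced, largely through the Hap transcription factor complex, when cells turn to ethanol and other respired carbon sources.

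All 32 genes were higher on the late than on the early arrays. Over both strains, 32 of 32 rose (limma, 4 early against 6 late arrays, adjusted p from 7.84e-09 to 0.00288), where 28.2% of the 6083 genes tested rose. The median change was 2.55 on the log2 scale, against 0.07 over all genes tested, and ran from 1.26 for NDE1 to 3.80 for COX12. In wild type alone 32 of 32 rose, beside 17.9% of all genes, with a median of 2.52. In the deletion 31 of 32 rose, beside 19.9% of all genes, with a median of 2.74, and the exception was NDE1 at 0.95 (adjusted p = 0.101). In 31 of the 32 genes every late array was above every early array, which held for 20.6% of the 5413 genes with all these values. The exception was again NDE1, for which the 1-day array of the deletion lay at -0.02, among the early ones. Quantile normalization, which gives all arrays the same spread of values, lowered the median change over both strains to 1.49 and left 27 of the 32 calls (17 in wild type and 20 in the deletion). COX9 alone turned its sign there, to -0.11.

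**Figure D1:**
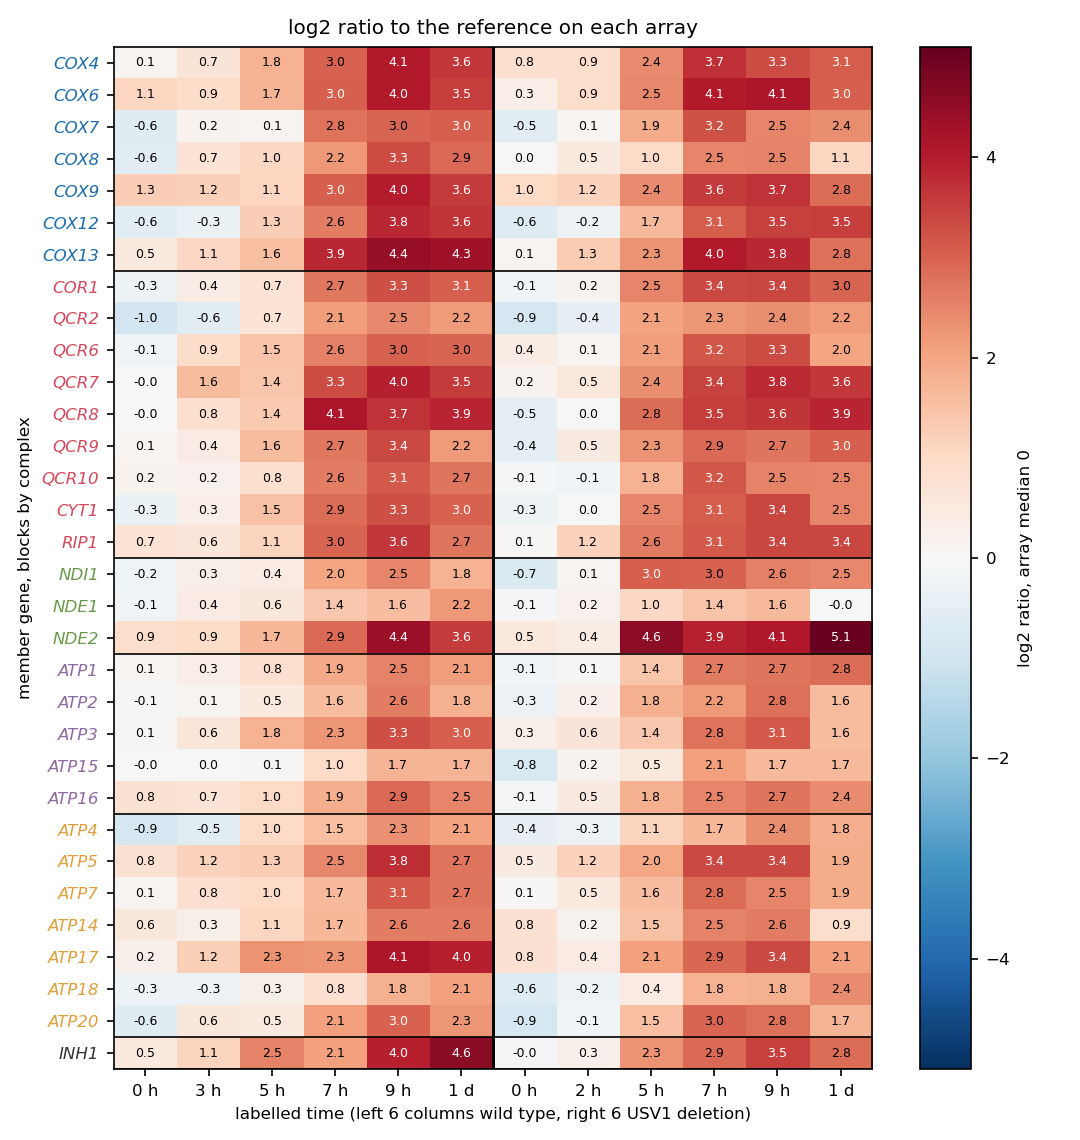
Log2 ratio to the reference (colour and printed value) of the 32 genes in rows, blocked by complex, on the 6 wild-type arrays (left) and the 6 USV1 deletion arrays (right) in order of labelled time. The late columns are red in almost every row, in shades from pale to dark, and NDE1 at 1 day in the deletion (-0.02) is the lowest. On the 5-hour columns the deletion is darker in most rows, an order that does not hold under quantile normalization.

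Complex IV, the oxidase that hands electrons to oxygen, rose in 7 of 7 subunit genes among the 32. Their median was 2.84 (a 7.16-fold rise), with estimates from 2.26 to 3.80. The subunit genes COX5A and COX5B were outside the 32 and were read with the lists below. COX12 (YLR038C), a structural subunit, changed the most among all 32 genes. In wild type its log2 ratio was -0.55 and -0.33 on the arrays of 0 and 3 hours, 1.26 on the 5-hour array, and 2.61, 3.84 and 3.64 on those of 7 hours, 9 hours and 1 day. Without USV1, COX12 had -0.64 and -0.24 on the arrays of 0 and 2 hours, 1.67 on the 5-hour array, and 3.07, 3.48 and 3.51 on those of 7 hours, 9 hours and 1 day. The 4 early arrays were all below 0 and the 6 late ones all above 2, with the 5-hour arrays between them in both strains. The rise was 3.80 (SE 0.24, 13.9-fold, limma adjusted p = 1.42e-08).

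COX8 (YLR395C), another structural subunit, had the smallest estimate of these 7 complex IV genes. Wild-type COX8 was at -0.59, 0.71, 1.04, 2.21, 3.31 and 2.90 at 0, 3, 5, 7 and 9 hours and 1 day. Without USV1, COX8 was at 0.03, 0.50, 0.97, 2.50, 2.52 and 1.11 at 0, 2, 5, 7 and 9 hours and 1 day. The lowest late array, the 1-day deletion sample, still lay above the highest early array, and the rise was 2.26 (SE 0.35, 4.80-fold, adjusted p = 5.81e-05). The other 5 genes, COX4 (YGL187C), COX6, COX7, COX9 and COX13, rose by 2.29 to 3.13.

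Complex III, which takes electrons from coenzyme Q to cytochrome c, rose in 9 of 9 genes with a median of 2.97 (7.85-fold). Its estimates lay between 2.52 and 3.70, and their standard errors between 0.20 and 0.28. QCR8 (YJL166W), a small subunit, was at -0.02, 0.80, 1.35, 4.13, 3.68 and 3.89 at 0, 3, 5, 7 and 9 hours and 1 day in wild type. Without USV1, QCR8 was at -0.45, 0.02, 2.84, 3.52, 3.63 and 3.89 at 0, 2, 5, 7 and 9 hours and 1 day. Both strains ended at the same value under centring. At 5 hours, on that scale, the deletion stood near its late arrays and wild type near its early ones. Under quantile normalization 7 of the 9 complex III genes were lower in the deletion at 5 hours. The rise was 3.70 (SE 0.22, 13.0-fold, adjusted p = 7.84e-09).

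QCR6 (YFR033C), another small subunit, had the smallest change of complex III. It read -0.14, 0.92, 1.47, 2.56, 2.99 and 2.97 over the 6 wild-type times in order. Without USV1, QCR6 read 0.37, 0.13, 2.14, 3.17, 3.31 and 2.03. The early and late arrays did not overlap, and the rise was 2.52 (SE 0.27, adjusted p = 1.79e-06). Both core subunits rose, COR1 by 3.10 and QCR2 by 2.97, as did the redox carriers, cytochrome c1 (CYT1, 3.10) and the Rieske iron-sulfur protein (RIP1, 2.58).

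The 3 NADH dehydrogenases differed most among themselves. NDI1 (YML120C), the matrix-side enzyme, was at -0.21, 0.31, 0.43, 2.01, 2.48 and 1.79 over the 6 wild-type times. Without USV1, NDI1 was at -0.72, 0.12, 3.05, 2.99, 2.56 and 2.47. Under centring, its highest value in the deletion fell at 5 hours, whereas the wild-type 5-hour array was within 0.12 of the 3-hour one. Its rise from early to late was 2.51 (SE 0.26, 5.69-fold, adjusted p = 1.02e-06).

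NDE2 (YDL085W), an enzyme for cytosolic NADH, read 0.91, 0.95, 1.68, 2.90, 4.36 and 3.56 in wild type. Without USV1, NDE2 read 0.53, 0.38, 4.58, 3.92, 4.07 and 5.06. Its rise was 3.29 (SE 0.32, 9.75-fold, adjusted p = 5.54e-07). NDE1 (YMR145C), its paralog, read -0.15, 0.43, 0.59, 1.37, 1.56 and 2.20 in wild type. Without USV1, NDE1 read -0.07, 0.21, 1.04, 1.44, 1.65 and -0.02. The strains ran close together through 9 hours and parted at 1 day, when wild type was at its highest and the deletion was back at its early level. The rise of NDE1 was 1.26 (SE 0.31, 2.40-fold, adjusted p = 0.00288). Within the deletion it reached adjusted p = 0.00549 with an estimate of 1.48 once the 1-day array was left out. Binding of each paralog's transcript to the other's probe was not tested.

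**Figure D2:**
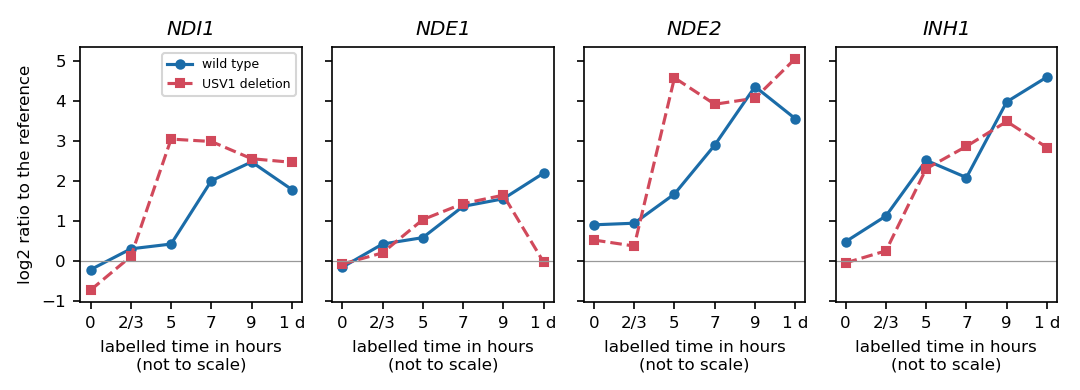
Log2 ratio to the reference of NDI1, NDE1, NDE2 and INH1 (1 panel each) against labelled time, with wild type as circles on a solid line and the USV1 deletion as squares on a dashed line, 1 array per point. NDI1 and NDE2 stand at 3.05 and 4.58 at 5 hours in the deletion against 0.43 and 1.68 in wild type, and NDE1 and INH1 part at 1 day.

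The F1 head of ATP synthase, where ATP is made, rose in 5 of 5 genes with a median of 2.09 (4.25-fold) and estimates from 1.81 to 2.38. ATP1 (YBL099W), the alpha subunit, read 0.08, 0.34, 0.85, 1.95, 2.53 and 2.13 over the 6 wild-type times. Without USV1, ATP1 read -0.13, 0.07, 1.43, 2.66, 2.73 and 2.83. Every late array of the deletion was above every late array of wild type, and the rise over both strains was 2.38 (SE 0.21, 5.21-fold, adjusted p = 2.55e-07).

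ATP15 (YPL271W), the epsilon subunit, had the smallest change of F1. It read -0.03, 0.02, 0.07, 1.02, 1.72 and 1.72 in wild type, flat through 5 hours. Without USV1, ATP15 read -0.78, 0.16, 0.52, 2.09, 1.67 and 1.67. The rise was 1.81 (SE 0.24, 3.50-fold, adjusted p = 1.71e-05). The beta subunit ATP2, the gamma subunit ATP3 and the delta subunit ATP16 rose by 2.09, 2.27 and 2.02.

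The stator and membrane part, which anchors the head, rose in 7 of 7 measured genes with a median of 2.16 (4.47-fold). ATP20 (YPR020W), subunit g, read -0.62, 0.56, 0.49, 2.10, 3.01 and 2.27 over the 6 wild-type times. Without USV1, ATP20 read -0.88, -0.15, 1.52, 2.98, 2.79 and 1.74. It had the largest change of this group, 2.75 (SE 0.31, 6.75-fold, adjusted p = 2.49e-06), with no overlap of early and late arrays.

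ATP14 (YLR295C), subunit h of the stator, had the smallest. It read 0.58, 0.28, 1.11, 1.68, 2.62 and 2.62 in wild type. Without USV1, ATP14 read 0.79, 0.17, 1.51, 2.54, 2.62 and 0.89. Its lowest late array, at 1 day in the deletion, was only just above the highest early array (0.79, at 0 hours in the deletion), and the rise was 1.71 (SE 0.32, 3.26-fold, adjusted p = 0.000373). Within the deletion, ATP14 lost its call on leaving out the 2-hour, the 7-hour or the 9-hour array (adjusted p = 0.165, 0.0727 and 0.0666). The other 5 genes, ATP4, ATP5, ATP7, ATP17 and ATP18, rose by 2.05 to 2.49.

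INH1 (YDL181W) encodes the small protein that blocks ATP hydrolysis by the synthase when the proton gradient fails. It read 0.49, 1.13, 2.52, 2.09, 3.98 and 4.60 over the 6 wild-type times. Without USV1, INH1 read -0.04, 0.26, 2.31, 2.87, 3.49 and 2.84. The late arrays were all above the early ones, and the rise was 2.85 (SE 0.37, 7.22-fold, adjusted p = 1.05e-05), above the estimate of each of the 12 ATP synthase subunits.

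**Figure D3:**
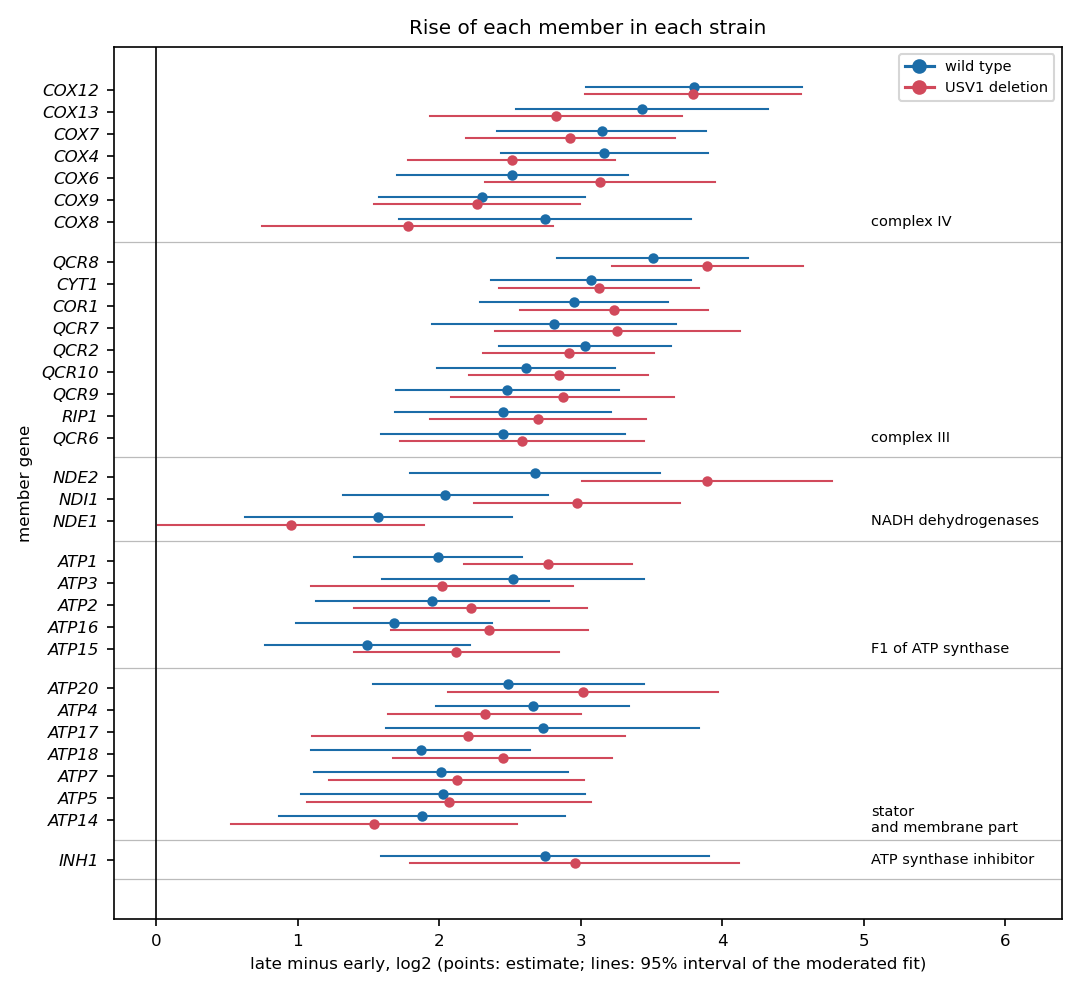
Late minus early change on the log2 scale of each gene (rows, blocked by complex, sorted by the estimate over both strains) in wild type (blue) and the USV1 deletion (red), as limma's estimate (point) and its 95% interval (line). All estimates are above 0, from 0.95 for NDE1 in the deletion to 3.90 for QCR8 and NDE2 in the deletion, and the intervals of the strains overlap in every gene.

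Set beside each other under centring, complexes III and IV had larger changes than ATP synthase in both strains. In wild type the median rise was 3.15 for complex IV, 2.81 for complex III, 1.95 for F1 and 2.03 for the stator and membrane part. In the deletion it was 2.83 for complex IV, 2.92 for complex III, 2.22 for F1 and 2.21 for the stator and membrane part. The subunits of a complex are not replicates of it, so these medians are descriptions, and the ranges overlapped. Under centring, the smallest rise of complex III over both strains (QCR6, 2.52) was above all 5 of F1, while ATP20 of the membrane part (2.75) was above 4 of the 9 genes of complex III and 2 of the 7 of complex IV.

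The steps between neighbouring arrays also differed between complexes. From 5 to 7 hours in wild type, the median step was 1.78 for complex III, 1.35 for complex IV and 0.95 for F1, but 0.57 for the stator and membrane part. The NADH dehydrogenases had a median step of 1.22. From 7 to 9 hours it was 0.50 for complex III and 0.47 for the NADH dehydrogenases, against 0.98 for complex IV, 1.0 for F1 and 0.98 for the stator and membrane part. The earlier of these steps depended on the scale of the arrays: under quantile normalization the median from 5 to 7 hours was 0.37 for complex III (5 of 9 genes above 0), 0.04 for complex IV (4 of 7), 0.31 for the NADH dehydrogenases, 0.26 for F1 and -0.32 for the stator and membrane part (2 of 7). Under centring, INH1 differed from the complexes, with a step of -0.43 from 5 to 7 hours and of 1.89 from 7 to 9 hours. Its steps were -2.41 and 1.17 under quantile normalization. Of the 32 genes, 27 had their highest late value of wild type on the 9-hour array. In the deletion the highest late value lay on the 7-hour array for 8 genes, the 9-hour array for 18 and the 1-day array for 6. These counts of highest values are descriptions under centring, with no share of all genes beside them.

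**Figure D4:**
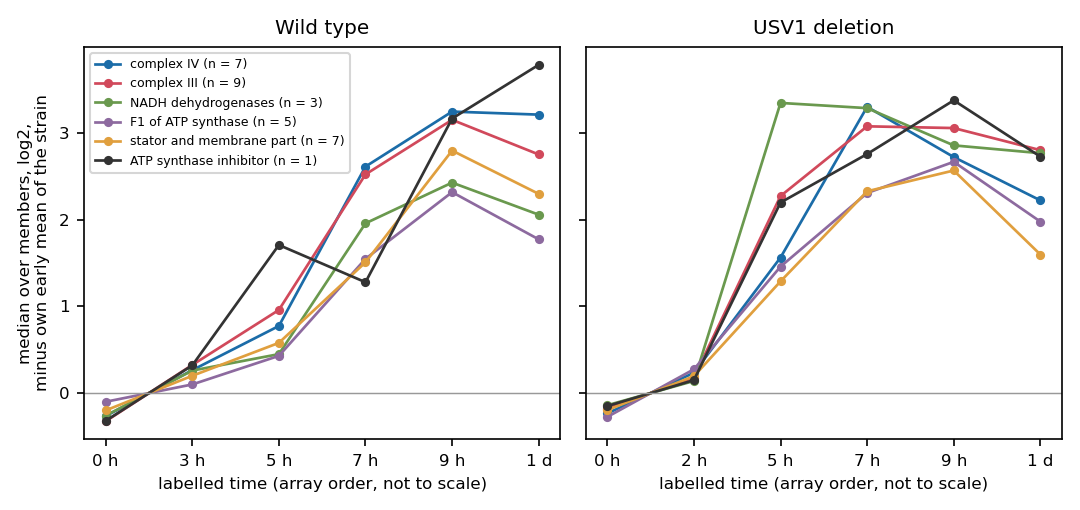
Median over the genes of each complex of the log2 ratio minus the mean of that strain's 2 early arrays, against labelled time in array order, for wild type (left) and the USV1 deletion (right). In wild type all lines climb from 5 to 9 hours except INH1 (black), which dips at 7 hours (under quantile normalization other lines do not all climb from 5 to 7 hours), and in the deletion the NADH dehydrogenases (green) are already at their highest at 5 hours.

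Under centring, the strains stood at different points of the course at 5 hours. The 5-hour value of a gene was expressed as a share of its own late rise, from the mean of the strain's early arrays to the mean of its late ones. The median share over the 32 genes was 28.3% in wild type, against 67.2% without USV1, an order that turned under quantile normalization (given below). The shares by complex were read under centring only. In wild type the medians by complex were alike, from 22.0% for F1 to 31.0% for the stator and membrane part, and INH1 stood at 62.3%. In the deletion they spread from 52.7% for F1 and 57.5% for complex IV through 64.0% for the stator and membrane part and 76.8% for complex III to 105.9% for the NADH dehydrogenases.

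The log2 ratio at 5 hours was higher in the deletion for 28 of 32 genes, beside 3090 of all 6020 genes. The median difference of the 32 was 0.70 where all genes had 0.05. The difference was at least 2-fold upward for 11 genes (34.4%), beside 20.4% of all genes at this time, and there is no replicate to test it. NDE2 differed by 2.90, NDI1 by 2.62, COX7 and COR1 by 1.76 each, and ATP3 was the lowest at -0.40. This order depended on the scale of the arrays: with quantile normalization only 8 of the 32 were higher in the deletion, with a median of -0.48, and the wild-type share of the late rise became 76% against 59.95% in the deletion. The median position of the 32 genes among all genes of the same array, which a scaling that keeps their order leaves as it is, was at the 94.9th percentile in wild type and at the 91.3rd in the deletion at 5 hours. On the early arrays it lay between 43.7 and 89.3, and on the late ones between 95.2 and 97.6.

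**Figure D5:**
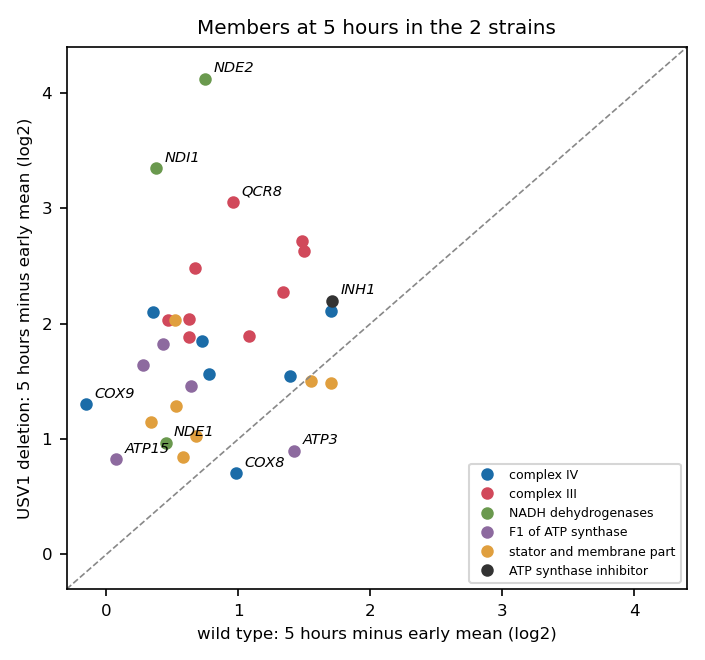
The 5-hour value minus the mean of the early arrays, in log2, of each of the 32 genes in wild type (horizontal) and the USV1 deletion (vertical), coloured by complex, with the dashed line of equality. Most points lie above the line, with NDE2 and NDI1 farthest from it and COX8, ATP3 and 2 genes of the stator and membrane part below, whereas under quantile normalization 24 of the 32 genes were lower in the deletion at 5 hours.

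Over the late arrays the strains crossed. At 7 hours 31 of 32 genes were higher in the deletion, beside 3310 of all 5908 genes. The median of the 32 was 0.59 (all genes 0.09), and QCR8 was the exception at -0.61. Under quantile normalization 24 of 32 were higher at 7 hours. At 9 hours 10 of the 32 were higher and 21 lower, with a median of -0.14, beside 3242 higher and 2764 lower of all 6054 genes. The balance of the 32 turned to 24 higher and 8 lower under quantile normalization. At 1 day 24 of 32 were lower in the deletion, by a median of -0.36 (all genes 0.05), where 47.5% of all genes were lower, and quantile normalization gave 26 of 32. The complex IV genes among the 32 were lower in 7 of 7 cases at 1 day with either scaling. Outside the 32, under centring, COX5A was lower too (2.63 in the deletion, 3.79 in wild type). COX5B was higher there (1.32 in the deletion, 1.06 in wild type). At least 2-fold lower, as were 8.95% of all genes, were NDE1 (-2.22), ATP17 (-1.89), COX8 (-1.79), INH1 (-1.76), COX13 (-1.54), ATP3 (-1.49) and ATP14 (-1.73), and NDE2 was the only 1 at least 2-fold higher (1.50). Complex III was divided, with 3 genes higher, 5 lower and QCR8 equal.

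None of these strain differences passed a test over arrays. For the difference of the late minus early change, deletion minus wild type, limma called 0 of the 32 genes and 0 of 6083 genes (0%), and 249 genes but none of the 32 had an unadjusted p under 0.05. The largest estimates were 1.22 for NDE2 (SE 0.58, 95% interval -0.03 to 2.47, adjusted p = 0.960), 0.93 for NDI1 (SE 0.48, interval -0.10 to 1.96), and -0.97 for COX8 (SE 0.68, interval -2.43 to 0.49). A rise that was 2-fold smaller without USV1 therefore lay within the interval of COX8, and one that was 2-fold larger within those of NDE2 and NDI1. A 2-fold difference in some direction also lay within the interval of every other gene except QCR2 (-0.97 to 0.74). In complex IV 6 of 7 estimates were below 0 and in complex III 8 of 9 were above 0, as counts with no test.

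Over the 5 shared times the strain effect was called for 0 of the 32 and 0 of 6062 genes (0%), with 260 at an unadjusted p under 0.05 and none of the 32 among them. NDE2 had the largest estimate, 0.95 (SE 0.47, adjusted p = 0.814), and was higher in the deletion at 5 hours, 7 hours and 1 day. At 7 hours, 9 hours and 1 day alone, limma called 0 of the 32 genes and 2 of 6091 (0.0328%). The estimates there ran from -0.76 for COX8 (SE 0.36) to 0.74 for NDE2 (SE 0.35).

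Within the late arrays, 1 day was compared with 7 and 9 hours in both strains together. Limma called 0 of the 32 genes and 17 of 6090 (0.279%). The estimate was below 0 for 25 of 32, with a median of -0.22 (all genes 0.02), and the lowest was ATP5, the stator subunit OSCP, at -0.92 (SE 0.39, adjusted p = 0.344). INH1 (0.61), ATP18 (0.67) and NDE2 (0.50) were among the 7 with estimates above 0. Leaving out the 1-day array of the deletion took the median of the 32 to 0.07 and leaving out that of wild type took it to -0.43.

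The wider respiratory system was read from 9 lists of genes, of which 70 of 80 entries had a row in the table. The mitochondrially encoded subunits (0 of 7) were not analysed here. Of the assembly and translation factors of complex IV, 10 of 20 rose and none fell over both strains, with a median of 0.57, where 28.2% of all genes tested rose and 26.7% fell. The complex III factors, a list that also held CYC3, the heme lyase of cytochrome c, gave 5 of 11 (median 0.53). Those of ATP synthase gave 6 of 11 (median 0.54), and neither list had a gene called lower. Leaving out 1 array at a time, these counts ranged from 7 to 12, 3 to 5 and 4 to 7, the lowest without the 2-hour deletion array, the 0-hour wild-type array and either the 0-hour or the 2-hour deletion array. With the 5-hour arrays counted as early, they were 5, 2 and 0, where 1003 of all 6075 genes tested rose. The largest were COX20, a chaperone of the Cox2 subunit, at 2.21 (SE 0.27), CBP4, a complex III assembly factor, at 2.50 (SE 0.31), and ATP11, an F1 assembly factor, at 1.20 (SE 0.25). These medians stood below the smallest complex median of the structural genes, 2.09.

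Among genes that work directly with the chain, 3 of 3 measured genes of cytochrome c and its donors rose, where 28.2% of all genes tested rose. CYB2, the lactate dehydrogenase that feeds cytochrome c, rose by 4.35 (SE 0.52, adjusted p = 4.53e-06). Of 4 other structural subunits and regulators 3 rose with a median of 3.02, led by STF2, a stabilizing factor of the inhibited synthase, at 3.27 (SE 0.36). Of the complex IV subunits on this list, COX5A was among those that rose, and COX5B was not called, at 0.77. In ATP export and phosphate import 5 of 7 rose and 1 fell. Under quantile normalization 3 rose and 2 fell, where 1608 of all 6083 genes rose and 1526 fell. AAC1, an ADP/ATP carrier of the inner membrane, rose by 3.61 (SE 0.24, adjusted p = 1.84e-08), and POR2, a porin of the outer membrane, fell by 1.46 (SE 0.25, adjusted p = 0.000138).

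In coenzyme Q synthesis 4 of 10 rose and 1 fell, with a median of 0.45, where 28.2% of all genes tested rose and 26.7% fell. The rising count there was 1 under quantile normalization (with 2 falling), where 1608 of all 6083 genes rose and 1526 fell. It was 0 with the 5-hour arrays counted as early, and 1 without the 0-hour array of the deletion. COQ4 rose by 1.60 (SE 0.33), and COQ10, a coenzyme Q binding protein, fell by 0.67 (SE 0.19, adjusted p = 0.00838). Of the 4 genes of the Hap complex 3 rose, and 1 did without the 0-hour array of the deletion. HAP4, its activating subunit, stood at -0.37, 0.42, 1.54, 3.69, 3.24 and 3.48 over the 6 wild-type times. Without USV1, HAP4 stood at -0.45, 0.29, 3.26, 3.60, 3.41 and 2.37. Its late arrays were all above its early ones, and it rose by 3.33 (SE 0.27, adjusted p = 9.42e-08), while HAP3 and HAP5 rose by 0.73 and 0.69 and HAP2 had 0.45 (adjusted p = 0.0666). The counts of the lists depended on which arrays counted as early: with the 5-hour arrays added to the early ones, 5 complex IV factors, 2 complex III factors and 0 ATP synthase factors passed.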

How the data were processed

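The authors deposited 1 table of log2 ratios, with 1 value per gene and array, read here as base 2, which no source states. How spots were scanned, filtered and normalized is not given in the sources used here, and the labels carry no dye, slide or date. Array medians as deposited lay between -0.11 and 0.03, and each array was centred to 0. The lowest correlation between 2 arrays was -0.07. Genes were named through a RefSeq table of assembly R64. All genes were fitted together with limma 3.58.1 (lmFit and eBayes, R 4.3.3) where at most 1 value per strain and phase was missing, with Benjamini-Hochberg adjustment over all genes tested and calls at 0.05. Standard errors (SE) come from limma's moderated variances. Early and late arrays are different times and not replicates, so the spread holds change within a phase. The fits were tested on simulated data. Members, lists, phases and tests were chosen with earlier results of these data known. Values on every array are given for the NADH dehydrogenases, INH1, the genes of largest and smallest change in each other group and, chosen after its values were seen, HAP4. From each list the gene with the largest rise and the largest fall past the threshold is named, and other list genes were chosen after their values were seen. Alternatives were the deposited scale, quantile normalization, complete genes, robust variances, other phases, no strain term, no time factor, 1 day minus 0 hours, and each array left out. Ratios of spotted arrays have no read depth, and the number of arrays limits the precision.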

Additional observations from a re-analysis of the deposited data

How the results depend on the processing

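The direction and call of the 32 genes' rise over both strains held on the deposited scale, with complete genes, with robust variances, without the strain term, and with the 5-hour arrays counted as early or as late. Taken as 1 day minus 0 hours, 22 of 32 passed, where 176 genes rose and 68 fell in all, against 1714 and 1623. With the 5-hour arrays as early, 1003 genes rose and 929 fell. Leaving out 1 array at a time left 32 calls over both strains, 30 to 32 in wild type alone and 29 to 32 without USV1. The calls lost were NDE1 and ATP5 on leaving out the 0-hour array of wild type, ATP14 on leaving out its 3-hour array, COX8 and ATP5 on leaving out the 0-hour array of the deletion, and ATP14 as given above. Over all genes the rising calls then ranged from 584 to 1193 (wild type), from 672 to 1294 (deletion) and from 1 to 70 for 1 day minus 7 and 9 hours, where the falling ones ranged from 0 to 58 (main 8). Under quantile normalization these were 19 and 15. With 1 day minus 0 hours, 0 factors of the 3 assembly lists passed, and with the 5-hour arrays as late the fall of COQ10 did not.

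Under quantile normalization the genes called higher numbered 17 in wild type and 20 in the deletion, COX9 turned to -0.11 over both strains, -0.16 in wild type and -0.058 in the deletion, and the wild-type median share of the late rise at 5 hours became 76%. The assembly factors called higher became 7 of 20 for complex IV, 3 of 11 for complex III and 3 of 11 for ATP synthase. Of all 6083 genes tested, 1608 were called higher there. Complex IV medians in wild type became 1.56, 2.14, 2.23, 2.79 and 2.80 at 3, 5, 7 and 9 hours and 1 day, and in the deletion 1.74, 1.55, 2.41 and 2.76 at 2, 5, 7 and 9 hours. Complex III medians in wild type became 2.39, 2.02, 2.29 and 2.35 from 5 hours to 1 day, and in the deletion 1.62, 2.16, 2.70 and 2.22. Those of the NADH dehydrogenases were 0.79 at 3 hours in wild type and 0.39 at 2 hours in the deletion. F1 had 1.85 at 9 hours in wild type and 1.75 at 7 hours in the deletion, and the stator and membrane part 2.14 and 1.96 on the same arrays. The cause was not tested; the method gives the early arrays, with their small spread, the same spread as the late ones.

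None of the following uncalled estimates kept its sign when 1 array at a time was left out. The difference of the late minus early change was -0.52 to 0.73 for INH1. The strain effect over shared times was -0.50 to 0.17 for NDE1, and at 7 hours, 9 hours and 1 day it was -1.07 to 0.08 for NDE1 and -1.13 to 0.14 for INH1. For 1 day minus 7 and 9 hours, NDE1 ranged from -1.56 to 0.73, NDE2 from -0.07 to 1.06 and INH1 from -0.34 to 1.56. The sign of NDE1 in each case turned on the 1-day arrays. The labels give no replicate numbers, and the strain effects pair the arrays by labelled time; without the time point factor, 0 of the 32 genes were called.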
